A study of Mus musculus with 32 samples.

Results

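The p53 pathway is described here through 10 genes across 16 groups of libraries from mouse embryonic stem cells and the retinal organoids grown from them: Trp53, which encodes the transcription factor p53, and 9 genes that p53 is known to switch on (Cdkn1a, Mdm2, Ccng1, Trp53inp1, Bax, Bbc3, Phlda3, Sesn1 and Eda2r). The members were chosen by gene symbol, 10 of the 55492 rows of the deposited expression table, and all 32 libraries were used. Polyadenylated RNA was sequenced from 4 kinds of culture at days 0, 2, 4 and 6, with day 0 being the stem cells. WT is the Rx:GFP line. KO stands for the libraries labelled Mettl3 KO, a line in which the gene for METTL3, the catalytic subunit of the m6A RNA methyltransferase, was knocked out. Both other kinds carry a METTL3-GRBD fusion that is overexpressed on the same knockout background, under the name WT MTL3-GRBD OE in Mettl3 KO. They are called no Dex and Dex here, for cultures without and with Dex at 10 µM. All organoid groups, at days 2, 4 and 6, were grown with AGN at 0.1 µM, and the labels of day 0 name no AGN dose. The protocol names Dex for 2, 4 and 6 days, while 2 libraries of day 0 are labelled Dex treated, and the labels were followed. No culture without the fusion received Dex. Each group has 2 libraries, and their titles and library names give no round of preparation or sequencing. The labels do not say whether the 2 libraries of a group came from separate cultures. P-values therefore measure only the spread between these libraries, which may be technical.

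p53 is a transcription factor that cells keep at a low level by destroying the protein as fast as it is made. DNA damage, stalled ribosomes and other stress stabilise the protein, so its activity is read from its target genes better than from its own mRNA. Targets include Mdm2, the ubiquitin ligase that sends p53 to the proteasome and so closes a negative feedback loop, Cdkn1a (p21), which blocks cyclin-dependent kinases, and a set of genes that promote apoptosis. Embryonic stem cells are known to hold much p53 and to lower it as they differentiate.

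The values are FPKM, fragment counts scaled for transcript length and library depth. Recovered from the steps of the low values, library depth was 28.3 to 52.9 M fragments (M, mega), at which 3 fragments on a transcript of 2 kb give 0.028 to 0.053 FPKM. All 10 members lay far above that in every library, from 3.72 FPKM (Sesn1) to 886 FPKM (Bax), and all 10 passed the filter on low values without depending on any 1 group. Mettl3 itself was not lower in KO. Its libraries read 42.9 to 43.8 FPKM at day 0 in KO against 33.2 to 36.8 in WT, and at days 2, 4 and 6 the limma adjusted p for KO against WT was 0.713, 0.0904 and 0.325. A gene-level value cannot show a small deletion, so it does not check the label. Pou5f1, a marker of pluripotent stem cells, averaged 884 to 1064 FPKM in the 4 lines at day 0. The summed eye field markers (Lhx2, Pax6, Rax, Six3 and Six6) reached 647 and 681 FPKM in the day 6 libraries of WT, 117 and 118 in KO, 182 and 186 in no Dex and 416 and 417 in Dex. Pax6 made up most of the KO sum, averaging 112 FPKM in KO and 110 in WT (limma adjusted p = 0.926). Lhx2 averaged 4.97 FPKM in KO and 234 in WT, Rax 0.30 and 118, Six3 0.635 and 132 and Six6 0.02 and 69.7.

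Promoter sequences are shown first because 9 of the 10 members are known p53 targets and the p53 half-site can be looked for next to their starts. RefSeq promoter windows (GRCm38.p6, 250 bases before to 50 after the start) were matched by symbol for 9 of the 10 members, in 13 windows. Trp53inp1 had no window. The p53 half-site consensus, a motif of 10 bases that reads the same on both strands, was present in 6 of these 13 windows (46.2%), against 2745 of all 32851 RefSeq windows (8.4%). No other motif was searched. Each stretch below runs 5′ to 3′ on the strand of its gene, with the bases that match the half-site in capitals, and none overlaps an annotated exon.
Cdkn1a: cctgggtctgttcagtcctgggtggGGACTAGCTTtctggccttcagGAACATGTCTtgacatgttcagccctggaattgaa
Mdm2: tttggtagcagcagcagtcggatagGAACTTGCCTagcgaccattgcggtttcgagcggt
Ccng1: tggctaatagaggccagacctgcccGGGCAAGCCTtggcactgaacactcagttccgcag
Bax: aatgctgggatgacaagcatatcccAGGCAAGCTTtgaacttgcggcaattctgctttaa
Sesn1: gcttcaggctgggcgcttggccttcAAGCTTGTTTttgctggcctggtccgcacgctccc
Trp53: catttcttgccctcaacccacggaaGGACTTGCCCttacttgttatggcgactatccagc
The Cdkn1a stretch (chr17:29090881-29090962) holds 2 half-sites, at -73 and -51 bases from the start, with 12 bases between them. It is the only member window in which 2 half-sites lie within 13 bases of each other, an arrangement found in 24 of the 32851 windows. The start used for Cdkn1a lies close to the 5′ end of the annotated gene (29090976), which has 5 transcripts. Distances from any other start are not given here. Single matches lie at -186 bases from the start of Mdm2 (chr10:117710910-117710969), -185 from that of Ccng1 (chr11:40755437-40755496), -201 from that of Bax (chr7:45467065-45467124, also within an intron of Gm45808) and -75 from that of Trp53 (chr11:69580259-69580318). The match of Sesn1 (chr10:41887241-41887300) is at -173 from an inner start, within an intron of the longer transcript. Windows of Bbc3, Phlda3 and Eda2r held no match to these letters. A match is a description of the letters and no measure of p53 binding, which was not assayed here.

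**Figure D1:**
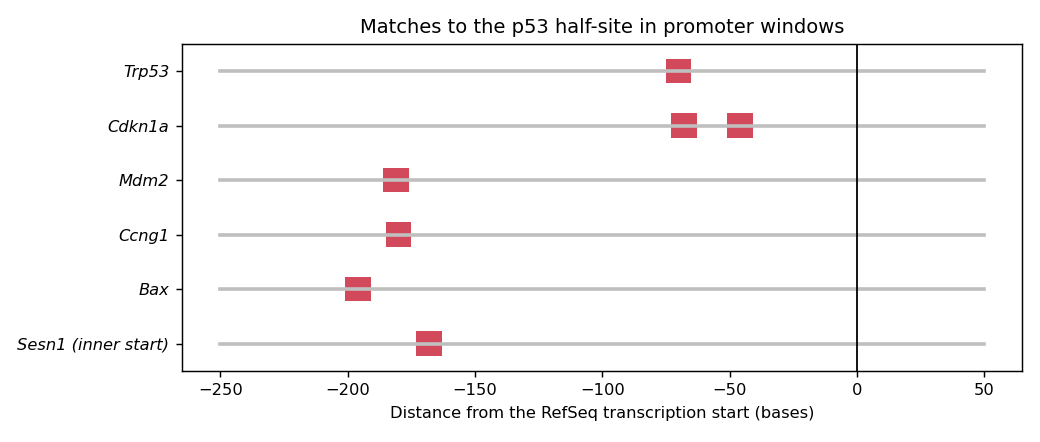
Position of each match to the p53 half-site (red blocks, drawn to scale) in the RefSeq promoter windows of 6 members, in bases from the transcription start (vertical line). Cdkn1a has 2 blocks, at -73 and -51, and each of the other 5 windows has 1.

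Differences below are on the log2(FPKM + 1) scale from a limma fit of all 32 libraries, with p-values adjusted by the Benjamini-Hochberg method over the 16276 tested genes, and a gene is called where that adjusted p is under 0.05. In bulk RNA, fewer cells of a type and less RNA per cell cannot be told apart. Trp53 mRNA and most targets differed in opposite directions in KO at days 2 and 4. Trp53 was lower in KO than in the other 3 lines at both days, while 8 of the 9 targets were called higher at day 2, beside 37.5% of all tested genes, and 7 at day 4, beside 36.5%. After rescaling libraries by median-of-ratios factors, 5 targets were higher and 1 lower at day 2, since Bax, Sesn1 and Eda2r lost their calls and Ccng1 was called lower, and 7 were higher and 1 lower at day 4. With Dex, Trp53 was higher than in no Dex at those days. At day 2, 7 targets were called lower with Dex, beside 31.5% of all genes, and calls over all genes leaned downward, 28.7% of them being higher (48.5% after rescaling, when 6 targets were called lower). At day 4, 5 targets were called lower, beside 21.9%. At day 0, 7 targets were called lower in KO, beside 29.8% of all genes, and Trp53 was not called.

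**Figure D2:**
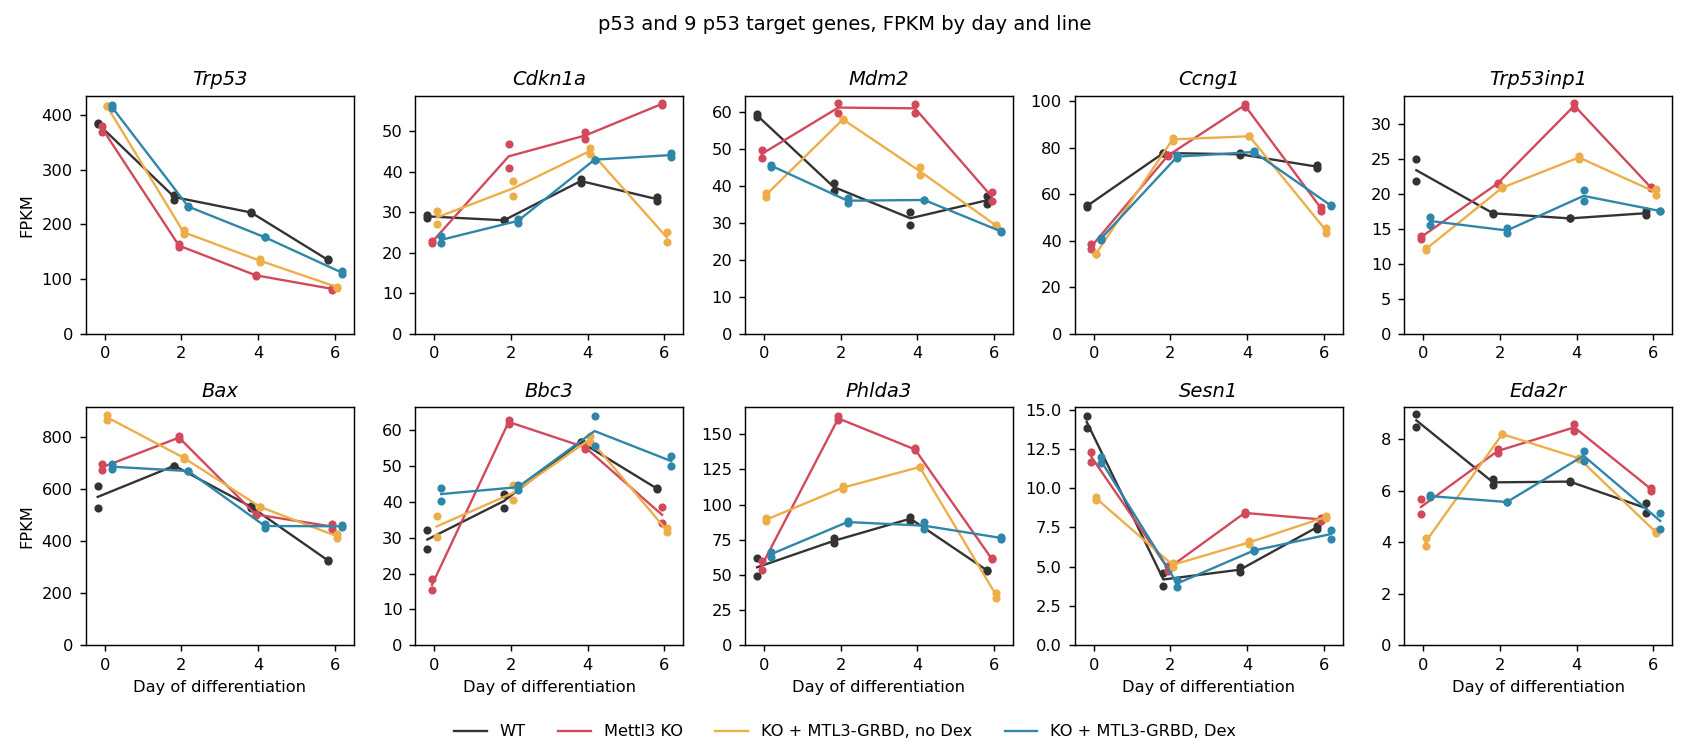
FPKM (vertical axes, from 0) of the 10 genes against day of differentiation, with 1 point per library and lines through the group means of WT, KO, no Dex and Dex. Trp53 descends in all 4 lines and lies lowest in KO from day 2 on, while Mdm2, Phlda3 and Trp53inp1 lie highest in KO at days 2 and 4.

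Trp53 (ENSMUSG00000059552, chr11:69580359-69591873, plus strand) encodes p53. Trp53 in WT read 386 and 384 FPKM at day 0, 254 and 246 at day 2, 222 and 222 at day 4 and 135 and 136 at day 6. KO libraries read 369 and 381 FPKM at day 0, 164 and 158 at day 2, 108 and 106 at day 4 and 83.2 and 81.1 at day 6. Levels at day 0 were close in the 2 lines, and from day 2 on both KO libraries lay below both WT libraries. The difference of KO from WT was -0.63 (SE 0.027, limma adjusted p = 2.98e-13) at day 2, -1.04 (SE 0.027, limma adjusted p = 1.47e-16) at day 4 and -0.71 (SE 0.027, limma adjusted p = 1.38e-14) at day 6. At day 0 it was -0.037 (SE 0.027, limma adjusted p = 0.282). The gap to WT was widest at day 4. Its growth between day 0 and day 2 was -0.59 (SE 0.038, limma adjusted p = 3.5e-10). Without Dex the fusion line read 416 and 416 FPKM at day 0, 189 and 182 at day 2, 136 and 131 at day 4 and 86.6 and 84.5 at day 6. With Dex it read 413 and 418 FPKM at day 0, 232 and 233 at day 2, 176 and 177 at day 4 and 109.7 and 115 at day 6. The no Dex libraries lay between KO and Dex at days 2, 4 and 6, and Dex lay between no Dex and WT. No Dex exceeded KO by 0.20 (SE 0.027, limma adjusted p = 7.94e-06) at day 2 and 0.32 (SE 0.027, limma adjusted p = 9.67e-08) at day 4, and at day 6 its libraries were again higher without passing the test, at 0.058 (SE 0.027, limma adjusted p = 0.0812). That value was 0.077 and called after rescaling. Dex exceeded no Dex by 0.32 (SE 0.027, limma adjusted p = 1.57e-08), 0.40 (SE 0.027, limma adjusted p = 7.94e-10) and 0.39 (SE 0.027, limma adjusted p = 8.33e-10) at days 2, 4 and 6. Neither fusion group reached WT at days 4 and 6. Dex differed from WT by -0.33 (SE 0.027, limma adjusted p = 7.92e-09) at day 4 and -0.27 (SE 0.027, limma adjusted p = 4.37e-08) at day 6. The smaller differences of Dex from WT at day 0 (0.11, 0.18 after rescaling) and day 2 (-0.10) were called, and were not when the 4 compared libraries were fitted alone, the second also without WT replicate 1. From day 0 to day 6 Trp53 fell by 1.5 in WT, 2.18 in KO, 2.27 in no Dex and 1.88 in Dex on the log2 scale, all with a limma adjusted p of at most 3.31e-20. Rescaling libraries by median-of-ratios factors moved the median of all genes over that interval by -0.11 in WT, -0.098 in KO, -0.17 in no Dex and -0.14 in Dex, and the falls were then larger, from -1.66 in WT to -2.53 in no Dex. Trp53 ranged 5.07-fold between the means of no Dex at day 0 and KO at day 6, and of the 15 neighbouring pairs in the order of its 16 group means only 2 had overlapping libraries. The processed pseudogene Trp53-ps on chromosome 17 could share reads with it.

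Mdm2 (ENSMUSG00000020184, chr10:117688875-117710758, minus strand), the ubiquitin ligase of the feedback loop, was highest in WT at day 0 and in KO at days 2 and 4 among the 4 lines. Mdm2 in WT read 59.5 and 58.8 FPKM at day 0, 40.7 and 38.8 at day 2, 33 and 29.6 at day 4 and 35.1 and 37.2 at day 6. KO libraries read 49.7 and 47.7 FPKM at day 0, 62.6 and 59.9 at day 2, 59.8 and 62.3 at day 4 and 36.1 and 38.3 at day 6. WT was the higher line at day 0, both KO libraries lay above both WT libraries at days 2 and 4, and the lines overlapped at day 6. The difference of KO from WT was -0.28 (SE 0.044, limma adjusted p = 3.41e-05) at day 0, 0.61 (SE 0.044, limma adjusted p = 5.45e-10) at day 2, 0.94 (SE 0.044, limma adjusted p = 7.23e-13) at day 4 and 0.038 (SE 0.044, limma adjusted p = 0.472) at day 6. That gap moved between day 0 and day 2 by 0.89 (SE 0.062, limma adjusted p = 1.23e-09). Without Dex the fusion line read 37.1 and 38.2 FPKM at day 0, 58.3 and 57.9 at day 2, 45.1 and 43.01 at day 4 and 29.1 and 29.4 at day 6. With Dex it read 45.8 and 45.3 FPKM at day 0, 36.7 and 35.4 at day 2, 36.2 and 36.3 at day 4 and 27.97 and 27.5 at day 6. At day 2 the 2 no Dex libraries stood near KO and the 2 Dex libraries lay below WT. The difference of Dex from no Dex was 0.27 (SE 0.044, limma adjusted p = 5.53e-05) at day 0, -0.67 (SE 0.044, limma adjusted p = 7.62e-10) at day 2, -0.27 (SE 0.044, limma adjusted p = 5.03e-05) at day 4 and -0.075 (SE 0.044, limma adjusted p = 0.188) at day 6. This contrast moved between day 0 and day 2 by -0.94 (SE 0.062, limma adjusted p = 7.79e-10) (-0.77 after rescaling). At day 6 the 2 fusion groups were the lowest of the 4 lines. No Dex was lower than KO at day 4, with a difference of -0.46 (SE 0.044, limma adjusted p = 3.92e-07), and at day 6, with -0.33 (SE 0.044, limma adjusted p = 3e-06), and at day 2 the difference was -0.076 (SE 0.044, limma adjusted p = 0.197). The difference of Dex from WT was called at day 2 (-0.14, limma adjusted p = 0.0232) and at day 4 (0.21, limma adjusted p = 0.000678). Both calls were lost when the 4 compared libraries were fitted alone, the day 2 call also on rescaling and without 1 library of either group (WT replicate 1 or Dex replicate 2), and the day 4 difference dropped to 0.13 without WT replicate 2.

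The cell cycle targets are Cdkn1a and Ccng1. Cdkn1a (ENSMUSG00000023067, chr17:29090976-29100727, plus strand) encodes p21, the inhibitor of cyclin-dependent kinases through which p53 arrests the cell cycle. Cdkn1a in WT read 29.3 and 28.6 FPKM at day 0, 28.03 and 27.97 at day 2, 37.2 and 38.2 at day 4 and 33.7 and 32.7 at day 6. KO libraries read 22.3 and 22.9 FPKM at day 0, 46.7 and 40.8 at day 2, 48.1 and 49.7 at day 4 and 56.5 and 56.9 at day 6. KO was the lower line at day 0 and the higher line at each later day, with no overlap. The difference of KO from WT was -0.34 (SE 0.060, limma adjusted p = 9.8e-05), 0.62 (SE 0.060, limma adjusted p = 3.59e-08), 0.37 (SE 0.060, limma adjusted p = 2.69e-05) and 0.76 (SE 0.060, limma adjusted p = 1.31e-09) at days 0, 2, 4 and 6. Between day 0 and day 6 Cdkn1a changed by 1.29 in KO and 0.19 in WT, a difference of 1.10 (SE 0.085, limma adjusted p = 1.77e-09). The WT change was not called on rescaling (0.038) or without WT replicate 1 of day 6. Without Dex the fusion line read 27.1 and 30.2 FPKM at day 0, 37.7 and 34.1 at day 2, 44.4 and 45.8 at day 4 and 22.5 and 25.1 at day 6. With Dex it read 22.3 and 24.01 FPKM at day 0, 27.3 and 28.4 at day 2, 42.97 and 42.9 at day 4 and 44.7 and 43.5 at day 6. No Dex lay between Dex and KO at days 2 and 4, and at day 6 both its libraries lay below all of WT, KO and Dex. At day 6 the difference of no Dex from KO was -1.22 (SE 0.060, limma adjusted p = 4.07e-12), the lowest difference of any of the 10 genes in that comparison, and that of Dex from no Dex was 0.86 (SE 0.060, limma adjusted p = 9.91e-10). At day 2 Dex differed from no Dex by -0.35 (SE 0.060, limma adjusted p = 9.19e-05), and at day 4 the difference was -0.068 (SE 0.060, limma adjusted p = 0.406). The calls for no Dex against KO at day 2 (-0.28) and for Dex against no Dex at day 0 (-0.29) were lost when the 4 compared libraries were fitted alone, and the first shrank to -0.18 without KO replicate 1. The call for Dex against WT at day 4 (0.18, limma adjusted p = 0.0176) was lost on rescaling and without any 1 of 3 libraries (WT replicate 1 and both of Dex). Exons of Cdkn1a overlap AC167363.2 on the opposite strand over 273 bases. That gene was at 0.89 FPKM or less.

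Ccng1 (ENSMUSG00000020326, chr11:40748552-40755311, minus strand) encodes cyclin G1, which recruits a phosphatase to MDM2. Its libraries ranged from 34.4 FPKM in no Dex at day 0 to 99.1 in KO at day 4. At day 0 WT held 55.3 and 54.6 FPKM and KO 36.6 and 38.6, a difference of -0.54 (SE 0.025, limma adjusted p = 4.56e-12). At day 4 the order was the opposite, 77.7 and 76.8 in WT and 99.1 and 97.7 in KO, a difference of 0.34 (SE 0.025, limma adjusted p = 4.07e-10). At day 6 KO was below WT again, with a difference of -0.41 (SE 0.025, limma adjusted p = 1.76e-11), at 54.8 and 52.9 FPKM against 71.2 and 72.7. At day 2 the 4 libraries lay within 76.6 to 77.9 FPKM and the difference was -0.020 (SE 0.025, limma adjusted p = 0.515). It was -0.14 and called after rescaling. Dex and no Dex differed in both directions. Dex was lower at day 4, with a difference of -0.12 (SE 0.025, limma adjusted p = 0.000752), and higher at day 6, with 0.31 (SE 0.025, limma adjusted p = 7.68e-09). The small differences of Dex from no Dex at day 2 (-0.13) and of no Dex from KO at day 0 (-0.12) were called in the fit of all libraries and not after rescaling (-0.026 and -0.0015), and the second was also lost when its 4 libraries were fitted alone.

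Of the apoptosis targets, Phlda3 (ENSMUSG00000041801, chr1:135766119-135769136, plus strand), which encodes a PH domain protein that keeps AKT off the membrane, had the largest difference of KO from WT at day 2 among the 10 genes. Phlda3 in WT read 48.95 and 61.8 FPKM at day 0, 75.95 and 72.4 at day 2, 88.5 and 91.5 at day 4 and 52.6 and 53.7 at day 6. KO libraries read 59.7 and 53.2 FPKM at day 0, 163 and 160.0 at day 2, 140.0 and 139 at day 4 and 61.9 and 60.9 at day 6. KO overlapped WT at day 0, stood at more than any other group at day 2 and lay above WT at days 4 and 6. The difference of KO from WT was 1.11 (SE 0.071, limma adjusted p = 9.68e-11) at day 2, 0.62 (SE 0.071, limma adjusted p = 2.51e-07) at day 4 and 0.21 (SE 0.071, limma adjusted p = 0.0154) at day 6. The day 6 call was lost without WT replicate 1 or without KO replicate 1. At day 0 the difference was 0.035 (SE 0.071, limma adjusted p = 0.736), with -0.13 without WT replicate 1 and 0.20, which was called, without WT replicate 2. Without Dex the fusion line read 90.1 and 88.4 FPKM at day 0, 111 and 113 at day 2, 127 and 126 at day 4 and 33.8 and 36.96 at day 6. With Dex it read 62.7 and 66.6 FPKM at day 0, 88.4 and 86.8 at day 2, 82.7 and 87.3 at day 4 and 75.4 and 77.2 at day 6. At days 2 and 4 no Dex lay between KO and Dex, and at day 6 no Dex was the lowest line and Dex the highest. The difference of Dex from no Dex was -0.35 (SE 0.071, limma adjusted p = 0.000453) at day 2, -0.57 (SE 0.071, limma adjusted p = 2.58e-06) at day 4 and 1.09 (SE 0.071, limma adjusted p = 3.65e-10) at day 6. Its sign at day 6 thus differed from that at day 0, when it was -0.46 (SE 0.071, limma adjusted p = 2.75e-05), and it moved between those days by 1.55 (SE 0.100, limma adjusted p = 3.6e-10). No Dex was the line closest to KO at day 4. Its difference from KO was -0.52 (SE 0.071, limma adjusted p = 1.13e-05) at day 2, -0.13 (SE 0.071, limma adjusted p = 0.179) at day 4, which was called when the 4 libraries were fitted alone, and -0.78 (SE 0.071, limma adjusted p = 2.14e-08) at day 6. The differences of Dex from WT at day 0 (0.23) and day 2 (0.24) were called, but the first was lost when its 4 libraries were fitted alone or without WT replicate 1 (0.06) or Dex replicate 2 and was 0.39 without WT replicate 2, and the second was lost without WT replicate 2 or either Dex library.

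Trp53inp1 (ENSMUSG00000028211, chr4:11156431-11174379, plus strand) encodes a nuclear protein that promotes p53-dependent apoptosis and autophagy. Trp53inp1 in WT read 24.97 and 21.8 FPKM at day 0, 17.3 and 17.2 at day 2, 16.5 and 16.5 at day 4 and 17 and 17.5 at day 6. KO libraries read 13.6 and 14.04 FPKM at day 0, 21.6 and 21.5 at day 2, 32.95 and 32.3 at day 4 and 21 and 20.8 at day 6. KO began below WT, and from day 2 on both of its libraries were above both WT libraries. The difference of KO from WT was -0.72 (SE 0.047, limma adjusted p = 4.34e-10), 0.30 (SE 0.047, limma adjusted p = 1.5e-05), 0.94 (SE 0.047, limma adjusted p = 1.9e-12) and 0.26 (SE 0.047, limma adjusted p = 5.98e-05) at days 0, 2, 4 and 6. After rescaling the day 2 value was 0.19, still called. Without Dex the fusion line read 12.2 and 11.9 FPKM at day 0, 20.8 and 21 at day 2, 25.4 and 25.01 at day 4 and 19.8 and 20.7 at day 6. With Dex it read 16.7 and 15.6 FPKM at day 0, 15.1 and 14.5 at day 2, 18.9 and 20.5 at day 4 and 17.5 and 17.6 at day 6. Dex was above no Dex at day 0 and below it at each later day, with differences of -0.47 (SE 0.047, limma adjusted p = 1.58e-07) at day 2, -0.34 (SE 0.047, limma adjusted p = 9.32e-06) at day 4 and -0.20 (SE 0.047, limma adjusted p = 0.00217) at day 6. The difference of no Dex from KO was -0.36 (SE 0.047, limma adjusted p = 1.4e-05) at day 4 and was not called at day 2 (-0.039, limma adjusted p = 0.56) or day 6 (-0.044, limma adjusted p = 0.484), while the day 0 call (-0.18) was lost on rescaling (-0.067).

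Bbc3 (ENSMUSG00000002083, chr7:16308393-16318205, plus strand) encodes PUMA, a BH3-only protein that unleashes BAX and BAK at the mitochondrion. Bbc3 in WT read 26.9 and 32.1 FPKM at day 0, 42.2 and 38.4 at day 2, 56.9 and 56.7 at day 4 and 43.8 and 43.5 at day 6. KO libraries read 18.4 and 15.3 FPKM at day 0, 62.9 and 61.9 at day 2, 54.9 and 55.6 at day 4 and 34.2 and 38.6 at day 6. The KO line thus had both the lowest group mean of this gene, at day 0, and the highest, at day 2. The difference of KO from WT was -0.77 (SE 0.094, limma adjusted p = 1.49e-06) at day 0, 0.62 (SE 0.094, limma adjusted p = 1.32e-05) at day 2 and -0.039 (SE 0.094, limma adjusted p = 0.755) at day 4. That contrast moved between day 0 and day 2 by 1.39 (SE 0.13, limma adjusted p = 7.79e-08), the largest of the 10 genes. At day 6 the difference of -0.26 (SE 0.094, limma adjusted p = 0.0221) was no longer called without either WT library or without KO replicate 1 (-0.17). Without Dex the fusion line read 30.3 and 36 FPKM at day 0, 40.4 and 44.7 at day 2, 58.5 and 56.6 at day 4 and 31.6 and 32.6 at day 6. With Dex it read 44.04 and 40.4 FPKM at day 0, 43.5 and 44.8 at day 2, 64.01 and 55.7 at day 4 and 52.9 and 49.97 at day 6. Those groups overlapped at days 2 and 4, where the differences were 0.054 (SE 0.094, limma adjusted p = 0.696) and 0.052 (SE 0.094, limma adjusted p = 0.714), and at day 6 both Dex libraries were above both no Dex libraries, by 0.66 (SE 0.094, limma adjusted p = 1.19e-05). No Dex was lower than KO at day 2, with a difference of -0.54 (SE 0.094, limma adjusted p = 0.000164). The day 0 difference of Dex from no Dex (0.34) was called in the fit of all libraries, and was lost when its 4 libraries were fitted alone or without replicate 1 of no Dex (0.22) or of Dex. In the order of levels of Bbc3, libraries overlapped in 11 of 15 neighbouring pairs of groups.

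Bax (ENSMUSG00000003873, chr7:45461697-45466898, minus strand), the pore-forming effector of the BCL2 family, was the most abundant member per length, from 324 to 886 FPKM. At days 0 and 4 its differences of KO from WT had the opposite sign to those of most targets. Its highest group was no Dex at day 0, with 867 and 886 FPKM, and its lowest WT at day 6, with 324 and 328. At day 0 it read 526 and 614 in WT and 696 and 672 in KO, a difference of 0.27 (SE 0.043, limma adjusted p = 4.22e-05), the only target called higher in KO at that day. That call was lost when the 4 libraries were fitted alone, and the value was 0.16 without WT replicate 1. At day 2 KO held 793 and 803 FPKM and WT 691 and 689, a difference of 0.21 (SE 0.043, limma adjusted p = 0.000347) that was not called after rescaling (0.094). At day 4 the difference was -0.081 (SE 0.043, limma adjusted p = 0.115). It was -0.19 and called after rescaling, and also called when its 4 libraries were fitted alone. At day 6 KO was higher, with 445 and 467 FPKM, by 0.48 (SE 0.043, limma adjusted p = 7.8e-09). Dex was lower than no Dex at day 4, with a difference of -0.21 (SE 0.043, limma adjusted p = 0.000578). At day 2 the difference was -0.11 (SE 0.043, limma adjusted p = 0.0529), which was called when the 4 libraries were fitted alone or with a mean of at least 5 FPKM, and 0.0013 after rescaling. The day 6 difference of Dex from no Dex (0.13) was lost on rescaling (0.11) and without no Dex replicate 1 or either Dex library. The differences of no Dex from KO at day 2 (-0.15) and day 6 (-0.12) were lost on rescaling. Without replicate 2 of KO both were lost too, as was the day 2 call without no Dex replicate 2 and the day 6 call without no Dex replicate 1, with the 4 libraries fitted alone or with no filter on low values. Bax shares 192 exonic bases with Gm45808 on the same strand, which was at 0.37 FPKM or less.

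Eda2r (ENSMUSG00000034457, chrX:97333840-97377216, minus strand) encodes a receptor of the TNF receptor superfamily for ectodysplasin A2. Its 32 libraries lay between 3.84 and 8.99 FPKM, where the pseudocount of 1 FPKM makes the log2 differences understate the change. At day 0 WT held 8.99 and 8.49 FPKM, KO 5.67 and 5.08, no Dex 4.18 and 3.84 and Dex 5.75 and 5.84. WT was the highest line at that day, and KO differed from it by -0.61 (SE 0.052, limma adjusted p = 1.33e-08). At day 4 KO was higher, with 8.60 and 8.34 FPKM against 6.38 and 6.34, by 0.36 (SE 0.052, limma adjusted p = 4.88e-06). The day 2 difference of 0.22 (SE 0.052, limma adjusted p = 0.00103) was not called after rescaling (0.12), and the day 6 difference of 0.16 (SE 0.052, limma adjusted p = 0.00958) was lost when its 4 libraries were fitted alone, without WT replicate 2 or without KO replicate 1. At day 2 no Dex held 8.20 and 8.21 FPKM and Dex 5.57 and 5.56, a difference of -0.49 (SE 0.052, limma adjusted p = 3.6e-07). The difference of no Dex from KO was -0.39 (SE 0.052, limma adjusted p = 3.37e-06) at day 6, while the calls at day 0 (-0.35) and day 4 (-0.20) were lost when the 4 libraries were fitted alone, and the day 4 call also without KO replicate 1.

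Sesn1 (ENSMUSG00000038332, chr10:41809935-41908424, plus strand) encodes sestrin 1, a stress protein that restrains mTORC1 signalling. Its level was lower at day 2 than at day 0 in both libraries of all 4 lines, a step that was not tested, going from 14.6 and 13.8 FPKM to 3.79 and 4.57 at day 2 in WT and from 11.7 and 12.3 to 5.04 and 4.71 in KO. No Dex went from 9.27 and 9.45 to 5.26 and 4.96 and Dex from 11.97 and 11.6 to 4.13 and 3.72. WT and KO were furthest apart at day 4, with 4.65 and 4.96 FPKM in WT and 8.50 and 8.34 in KO, a difference of 0.70 (SE 0.059, limma adjusted p = 4.42e-09). No Dex was lower than KO at that day, with a difference of -0.32 (SE 0.059, limma adjusted p = 0.00048), and Dex differed from no Dex by -0.10 (SE 0.059, limma adjusted p = 0.183). The day 2 difference of KO from WT, 0.19 (SE 0.059, limma adjusted p = 0.0114), was lost on rescaling (0.090), when its 4 libraries were fitted alone, without WT replicate 1 (0.08) and without KO replicate 1, and was 0.29 without WT replicate 2. With the 4 libraries fitted alone the calls for KO against WT at day 0 (-0.23) and for Dex against no Dex at day 2 (-0.31) and day 6 (-0.18) were lost as well, the last also without either no Dex library or Dex replicate 1.

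Counted over the 10 genes, KO against WT had 1 higher and 7 lower at day 0, beside 18.4% and 29.8% of all tested genes called in those directions (48.2% in all). At day 2 it had 8 higher and 1 lower, beside 37.5% and 21.3% (58.9% in all). Day 4 gave 7 higher and 1 lower, beside 36.5% and 24% (60.5% in all), and day 6 gave 5 higher and 3 lower, beside 30.9% and 34.2% (65.1% in all). The number of members called is to be read against these shares. Their median difference was -0.31, 0.26, 0.37 and 0.12 at days 0, 2, 4 and 6, beside -0.041, 0.088, 0.065 and -0.031 over all tested genes. Trp53 was the 1 gene called lower at days 2 and 4, and Cdkn1a, Mdm2, Trp53inp1, Phlda3, Sesn1 and Eda2r were called higher at both. The share of all tested genes called in 1 direction at both days was not counted. Rescaling moved the share of all called genes that were higher from 63.8% to 51.1% at day 2 and from 60.3% to 49.9% at day 4. After it the 10 genes had 5 higher and 2 lower at day 2 and 7 higher and 2 lower at day 4. The 8 called at day 6 became 5 without KO replicate 1.

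No Dex against KO had 5 higher and 5 lower among the 10 genes at day 0, 2 higher and 4 lower at day 2, 1 higher and 5 lower at day 4 and 0 higher and 6 lower at day 6, beside 49.1%, 37%, 26.7% and 49% of all tested genes called. At an unadjusted p under 0.05 the limma fit had 1 (Trp53) higher at day 6. Dex against no Dex had 6 higher and 3 lower, 1 higher and 7 lower, 1 higher and 5 lower and 6 higher and 2 lower at the same days, beside 43.4%, 44.3%, 40.2% and 42.7% called. In that comparison 31.5% of all genes were called lower at day 2, 21.9% at day 4 and 23.8% higher at day 6. Medians for Dex against no Dex were 0.25, -0.33, -0.11 and 0.22, beside 0.040, -0.081, -0.0090 and 0.0089 over all tested genes. Rescaling moved the share of called genes that were higher from 62.9% to 50.4% at day 0 and from 28.7% to 48.5% at day 2 for Dex against no Dex, and from 39.3% to 56% at day 0 and 36.3% to 50.1% at day 4 for no Dex against KO. After it the 10 genes had 6 higher and 4 lower for Dex against no Dex at day 0, 1 higher and 6 lower at day 2, and 2 higher and 5 lower for no Dex against KO at day 4. KO against WT and Dex against no Dex share no library, so their calls can be set side by side. At day 2, 6 genes were both higher in KO and lower with Dex (Cdkn1a, Mdm2, Trp53inp1, Phlda3, Sesn1 and Eda2r), which is 6 of the 8 higher in KO and 6 of the 7 lower with Dex. After rescaling there were 4, of 5 and 6, since Sesn1 and Eda2r were no longer called in KO. At day 4 there were 4 (Mdm2, Ccng1, Trp53inp1 and Phlda3), of 7 and 5, and the same 4 after rescaling. At day 6 only Trp53inp1 was in both sets, of 5 higher in KO and 2 lower with Dex, and 3 of the 5 higher in KO were also higher with Dex (2 after rescaling). Of all tested genes at day 2, 37.5% were called higher in KO and 31.5% lower with Dex. The share of all tested genes in both sets was not counted at any day. Whether these overlaps exceed chance was not tested. Dex against WT had 4 higher and 6 lower, 1 higher and 4 lower, 5 higher and 2 lower and 4 higher and 3 lower, beside 49.8%, 29.4%, 44.7% and 61.4% of all genes called. With the 4 compared libraries fitted alone the 10 called at day 0 became 6 and the 5 at day 2 became 2, and the latter were 2 to 3 without any 1 library.

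By direction, the shares of all tested genes called in no Dex against KO were 19.3% higher and 29.8% lower at day 0, 14.8% and 22.2% at day 2, 9.66% and 17% at day 4 and 21.1% and 27.9% at day 6. In Dex against no Dex they were 27.3% and 16.1% at day 0, 12.7% and 31.5% at day 2, 18.3% and 21.9% at day 4 and 23.8% and 19% at day 6. In Dex against WT they were 19% and 30.8%, 12.2% and 17.2%, 25.7% and 19.1%, and 29.2% and 32.2%. Differences of at least 1 on the log2 scale were few. Phlda3 passed it at day 2 between KO and WT and at day 6 between the fusion groups, Trp53 at day 4 between KO and WT and Cdkn1a in no Dex against KO at day 6. Over all tested genes the share that did so, at days 0, 2, 4 and 6, was 1.37%, 4.72%, 5.54% and 10% for KO against WT, 1.36%, 0.295%, 0.233% and 2.03% for no Dex against KO, 0.498%, 0.467%, 0.915% and 1.52% for Dex against no Dex and 1.7%, 0.977%, 2.01% and 5.9% for Dex against WT.

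Over differentiation, from day 0 to day 6, WT had 3 higher and 6 lower among the 10 genes, beside 78.1% of all tested genes called, 43.6% higher and 34.5% lower. KO had 5 higher and 4 lower, beside 80.4% of all tested genes called, 45% higher and 35.4% lower. No Dex had 2 higher and 6 lower, beside 81.9% of all tested genes called, 48% higher and 33.9% lower, and Dex had 5 higher and 5 lower, beside 80.4% of all tested genes called, 46.4% higher and 34% lower. After rescaling, WT had 2 higher and 7 lower, KO 4 and 4, no Dex 2 and 7, and Dex 2 and 5. In Dex, Bbc3 went from 0.28 to 0.080 and Phlda3 from 0.24 to 0.035, losing their calls, and Trp53inp1 from 0.12 to -0.077. Sesn1 changed by -0.84 in WT and -0.53 in KO, and Ccng1 by 0.38 and 0.51 (0.23 in WT after rescaling). Mdm2 changed by -0.69 in WT and -0.38 in KO. Shares of all genes past 1 on the log2 scale were 28.1%, 31.9%, 34% and 31.9% in WT, KO, no Dex and Dex. The move of the KO contrast between day 0 and day 2, a test added after the data were seen, was called for 9 genes (8 higher and 1 lower), beside 48.9% of all tested genes called, 35.6% higher and 13.2% lower, and 4.65% past 1. Its move between day 0 and day 6 was called for 9 (8 higher and 1 lower), beside 56.9% of all tested genes called, 31.1% higher and 25.8% lower, and 10.2% past 1. For the Dex contrast the move to day 2, also added, was called for 7 (2 higher and 5 lower), beside 45% of all tested genes called, 12.6% higher and 32.4% lower, and 2.16% past 1. Its move to day 6 was called for 8 (4 higher and 4 lower), beside 48.7% of all tested genes called, 22.7% higher and 25.9% lower, and 3.27% past 1. Rescaling moved the share of called genes that were higher from 73% to 57% for the KO contrast and from 28% to 49.1% for the Dex contrast, both at day 2, and left 8 higher and 2 lower, and 3 higher and 5 lower, of the 10 genes.

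**Figure D3:**
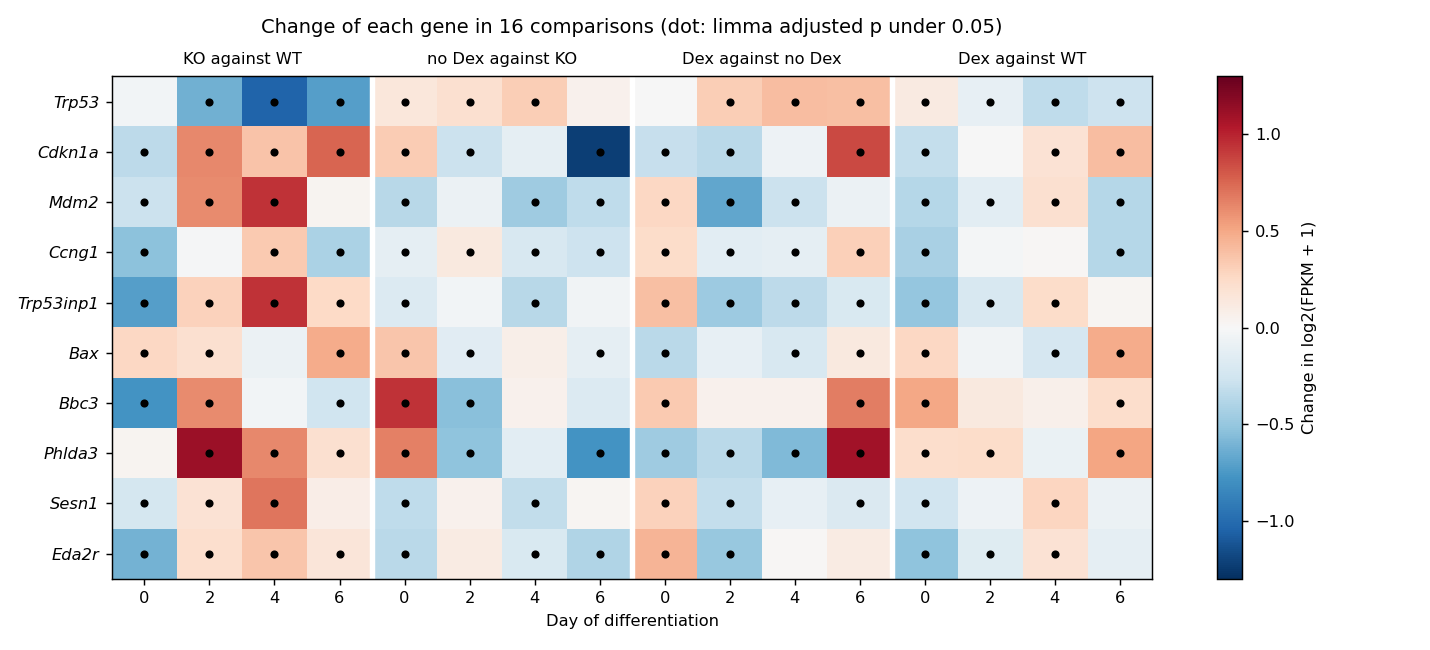
Change in log2(FPKM + 1) of each gene (rows) in 16 comparisons (columns, by day), red for higher and blue for lower, with a dot where the limma adjusted p was under 0.05. In the KO against WT block the targets are mostly blue at day 0 and red at days 2 and 4, while Trp53 is blue from day 2 on.

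A wider list of 24 other p53 targets, all tested, had mostly lower calls at day 0 and mostly higher calls at days 2 and 4. Like the members, this list was chosen with earlier results of these data known, so it gives no independent support. In KO against WT it had 4 higher and 15 lower at day 0, 19 higher and 3 lower at day 2, 16 higher and 3 lower at day 4 and 10 higher and 7 lower at day 6, with medians of -0.38, 0.49, 0.48 and 0.094. All tested genes had 18.4% higher and 29.8% lower, 37.5% higher and 21.3% lower, 36.5% higher and 24% lower and 30.9% higher and 34.2% lower. With the day 0 libraries fitted alone the 4 higher became 1. After rescaling the day 2 and day 4 counts were 17 higher and 4 lower, and 14 higher and 4 lower. At day 0 the list was led by Dcxr, a carbonyl reductase, at 7.55 FPKM in KO and 15.2 in WT. At day 2 Perp, a desmosomal effector of apoptosis, averaged 15.99 FPKM in KO and 3.38 in WT, a difference of 1.96 (limma adjusted p = 3.74e-13), and at day 4 24.9 against 6.06. Ephx1, an epoxide hydrolase, stood at 10.4 against 2.70 at day 2 and Dcxr at 52.2 against 21.1. Aen, an exonuclease that degrades DNA in apoptosis, stood at 299 against 151 at day 4 and 249 against 109 at day 6, and Polk, a translesion polymerase, at 7.46 against 3.61 at day 4. Of the 19 higher at day 2 and the 16 at day 4, 15 were shared, and the share of all tested genes higher at both days was not counted.

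At day 0 no Dex against KO had 5 higher and 7 lower of these 24, beside 19.3% higher and 29.8% lower of all tested genes. Rescaling turned that balance, to 12 higher and 4 lower, and with the 4 libraries fitted alone the 7 lower became 3. No Dex against KO had 1 higher and 18 lower at day 2, beside 14.8% higher and 22.2% lower, 0 higher and 13 lower at day 4, beside 9.66% higher and 17% lower, and 3 higher and 14 lower at day 6, beside 21.1% higher and 27.9% lower. Dex against no Dex had 7 higher and 4 lower at day 0, beside 27.3% higher and 16.1% lower. The 7 higher became 4 on rescaling, with the 4 libraries fitted alone and without Dex replicate 2, and the 4 lower became 2 with the 4 libraries fitted alone. At day 2 it had 1 higher and 14 lower, beside 12.7% higher and 31.5% lower, at day 4 2 higher and 14 lower, beside 18.3% higher and 21.9% lower, and at day 6 10 higher and 1 lower, beside 23.8% higher and 19% lower. From day 2 on, medians for Dex against no Dex were -0.25, -0.21 and 0.13. For no Dex against KO at day 4 the limma fit had 0 higher at an unadjusted p under 0.05. At day 2 Ephx1 averaged 2.77 FPKM with Dex and 6.36 without, and at day 4 Perp 6.93 against 15.1 and Pmaip1 (NOXA, a BH3-only protein) 6.87 against 14.4. By day 6 Sesn2, the second sestrin, was higher with Dex, at 37.1 against 21.6. At day 2, 13 of the 19 targets higher in KO and 13 of the 14 lower with Dex were the same ones, and at day 4 there were 11, of 16 and 14. At day 6 none of the 10 higher in KO was lower with Dex and 7 were higher. The share of all tested genes in both sets was not counted. Whether these overlaps exceed chance was not tested.

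Many mitotic genes are known to be repressed downstream of p21, and 12 mitotic genes were counted as a list. Whether p21 had a part in their levels was not tested. KO against WT had 1 higher and 9 lower of the 12 at day 2, 2 higher and 6 lower at day 4 and 1 higher and 10 lower at day 6, beside 21.3%, 24% and 34.2% of all tested genes called lower and 37.5%, 36.5% and 30.9% higher. On rescaling the counts at day 4 were 1 higher and 9 lower. The list had medians of -0.38, -0.16 and -0.39, after 3 higher and 4 lower at day 0, where the 4 lower became 2 with the 4 libraries fitted alone. Cdc20, the activator of the anaphase-promoting complex, averaged 143 FPKM in KO and 263 in WT at day 2 and 134 against 249.6 at day 4. Ccnb1, cyclin B1, stood at 75.1 against 129 at day 2, and Ccna2, cyclin A2, at 49.2 against 82.2 at day 6. At day 2 no Dex against KO had 9 higher and 1 lower, beside 14.8% higher and 22.2% lower of all genes, with Ccnb1 at 108 against 75.1, and Dex against no Dex had 8 higher and 2 lower, beside 12.7% higher and 31.5% lower, with Cdc20 at 241 against 167. At day 4 Dex against no Dex had 7 higher and 2 lower, beside 18.3% higher and 21.9% lower, with Cdc20 at 216 against 149. At day 6 it had 5 higher and 1 lower, beside 23.8% higher and 19% lower, and the 5 higher became 3 on rescaling, with no filter on low values, or without any 1 of the 4 libraries.

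**Figure D4:**
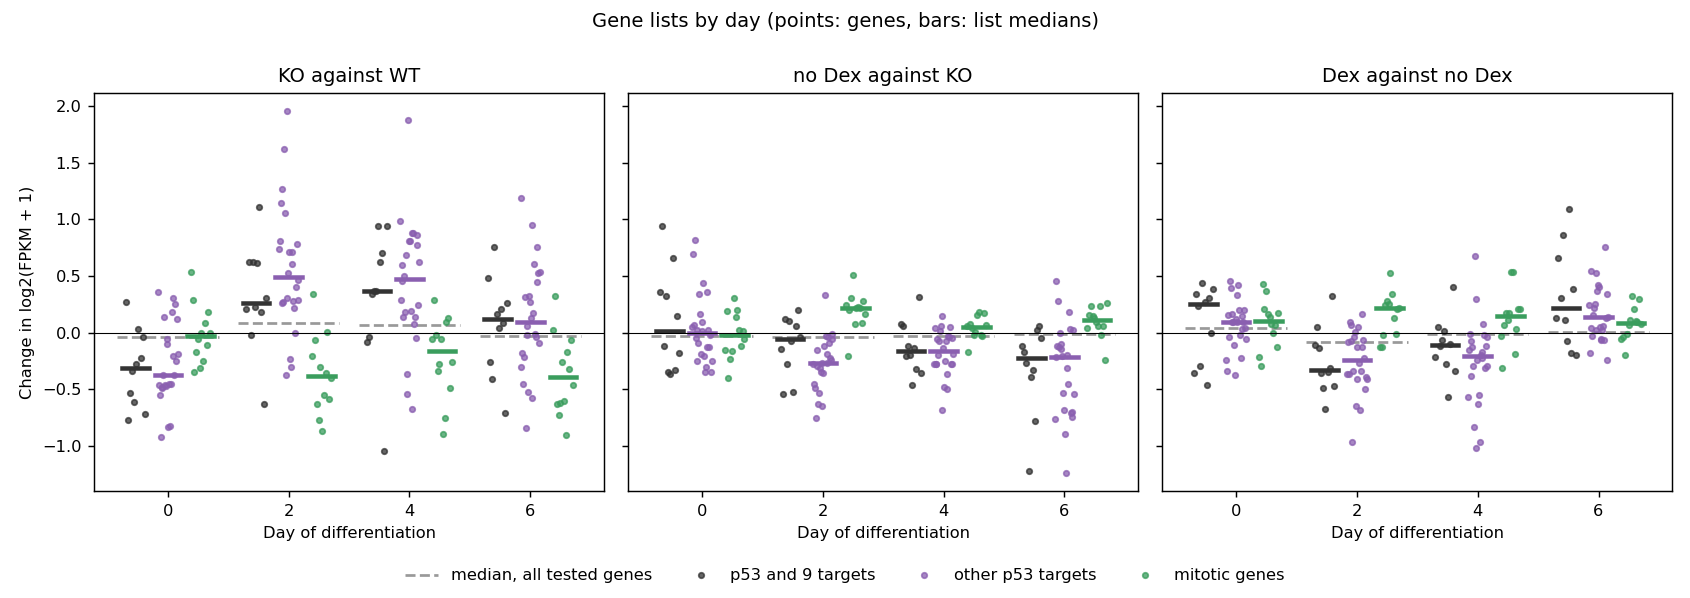
Change in log2(FPKM + 1) of p53 and the 9 targets, of 24 other p53 targets and of 12 mitotic genes (points are genes, thick bars list medians) in 3 comparisons by day, with the median of all tested genes dashed. In KO against WT at days 2 and 4 the medians of both target lists lie above the dashed line and that of the mitotic genes below it.

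The 10 further members of the BCL2 family had 5 higher and 2 lower in KO against WT at day 2, 6 higher and 3 lower at day 4 and 6 higher and 4 lower at day 6, where the 4 lower became 2 with a mean of at least 5 FPKM. All tested genes had 37.5% higher and 21.3% lower, 36.5% higher and 24% lower and 30.9% higher and 34.2% lower at those days, and the list's own shares at day 2 were 50% higher and 20% lower. Bcl2l1 (BCL-XL), which protects from apoptosis, averaged 47.1 FPKM in KO and 26.9 in WT at day 2 and 65.2 against 30.8 at day 6 (limma adjusted p = 1.18e-11), and Mcl1, which also protects, 108 against 69.5 at day 4. Bmf, a BH3-only protein that promotes apoptosis, stood at 26.97 against 14.3 at day 6. Bcl2l1 was lower in no Dex than in KO at day 6 (35.1 against 65.2), and Mcl1 was lower with Dex than without at day 2 (76.5 against 119).

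Among p53 regulators and family members, 13 of 14 were tested, Trp63 being too low. They had 2 higher and 6 lower in KO against WT at day 0, 1 higher and 5 lower at day 2, 5 higher and 5 lower at day 4 and 1 higher and 10 lower at day 6, and on rescaling the 5 lower at day 2 became 8. All tested genes had 18.4% higher and 29.8% lower, 37.5% higher and 21.3% lower, 36.5% higher and 24% lower and 30.9% higher and 34.2% lower at those days. With the 4 libraries fitted alone the 6 lower at day 0 became 3, and with a mean of at least 5 FPKM the 5 higher at day 4 became 3. Mdm4, the partner of MDM2 that blocks the p53 activation domain, was lower in KO at all 4 days, averaging 19.3 FPKM against 37.7 in WT at day 0 and 9.64 against 19.96 at day 6. With Dex it was higher than without at day 0 (17.4 against 9.56) and day 4 (14.9 against 10.3). Usp7, the deubiquitinase that stabilises MDM2, stood at 46.4 in KO and 69.2 in WT at day 2. Cdkn2a, whose ARF product inhibits MDM2, stood at 1.31 and 5.10 at day 6. Trp73, a p53 paralog, was higher in KO at day 2, at 4.42 against 2.49.

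Across the 16 group means, which share lines, days and libraries and are given as a description only, the most alike members by Pearson r were Trp53inp1 and Eda2r (Pearson r = 0.74, Spearman rho = 0.70 on the log2 scale). By Spearman rho they were Trp53 and Bax (r = 0.67, rho = 0.73). Trp53 ran against Cdkn1a (r = -0.65, rho = -0.66), and Ccng1 against Sesn1 (r = -0.68, rho = -0.59). Outside the 10 genes, the genes with the pattern closest to Cdkn1a over the 16 means were Furin (r = 0.91, rho = 0.91), Psen2 (r = 0.91, rho = 0.90), Pitpnm2 (r = 0.90, rho = 0.94), Tnks1bp1 (r = 0.90, rho = 0.92) and Paqr7 (r = 0.90, rho = 0.92). Those closest to Mdm2 were Nr1d2 (r = 0.96, rho = 0.94), Zfp473, Pfas, Cd55 and Slc19a2.

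Markers of other cell types moved with the same groups. All 4 extraembryonic endoderm markers (Gata4, Gata6, Sox17 and Dab2) were called lower in KO than in WT at each of the 4 days. Their summed level was 48.9 and 49.2 FPKM in the WT libraries and 5.26 and 5.49 in KO at day 2, and 38.01 and 39.5 against 8.79 and 8.86 at day 4. In no Dex it was 6.75 and 6.86 and in Dex 10.3 and 11.1 at day 2. Pluripotency markers, 5 in all, summed to 613 and 621 FPKM in WT, 444 and 452 in KO, 440.2 and 442 in no Dex and 317 and 324 in Dex at day 4. At day 2 those sums were 1097 and 1099.6, 1181 and 1193, 1099.7 and 1115 and 1007 and 1035. Pluripotency markers did not all move together. At day 4 Pou5f1 averaged 202 FPKM in KO and 399 in WT, while Nanog was higher in KO, at 22.2 against 13.2. Nanog was also higher in KO at day 2, at 33.4 against 15.7. The 3 neural crest markers (Sox10, Foxd3 and Tfap2a) summed at day 6 to 2.09 and 2.09 FPKM in WT, 27.8 and 28.8 in KO, 30.8 and 31.95 in no Dex and 14.6 and 14.8 in Dex. The 4 neural progenitor markers (Sox1, Nes, Pax3 and Hes5) summed at day 4 to 36.2 and 37.8 FPKM in WT, 61.4 and 62.4 in KO, 53.3 and 54.7 in no Dex and 70.3 and 71.5 in Dex, and at day 2 to 17.7 and 17.8, 27.1 and 27.9, 28.9 and 29.4 and 27.04 and 28.7. At day 6 those sums were 103 and 104, 283 and 286, 181 and 193 and 159 and 159.9. Sox1 averaged 26.5 FPKM in KO and 5.65 in WT at day 4 and Hes5 146 FPKM in KO and 14.5 in WT at day 6, and of the 4 markers 2 were called higher in KO at day 2, 3 at day 4 and 4 at day 6. Mesendoderm markers, 3 in all, summed at day 2 to 7.25 and 7.47 in WT, 12.8 and 13.1 in KO, 10.5 and 11.7 in no Dex and 9.56 and 10.01 in Dex, and at day 4 to 10.4 and 10.4, 7.70 and 7.96, 7.60 and 8.17 and 4.84 and 5.03. Those sums were mostly Eomes, the only 1 of the 3 that was tested. Eomes averaged 6.81 FPKM in WT and 12.1 in KO at day 2, and 9.80 and 7.29 at day 4. Among the endoderm markers Gata6 stood at 0.03 FPKM and Gata4 at 0.06 in KO at day 6. The part of these cells in the differences of the p53 targets was not tested.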

How the data were processed

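Polyadenylated RNA of 32 libraries was sequenced as paired reads, 2 libraries in each of 16 groups taken from the labels. The authors deposited 1 table of FPKM for 55492 genes. STAR, Cuffdiff and the build mm10 are named in the submitters' processing notes, without versions. Gene IDs were matched to GENCODE M21 (99.5% of rows). The FPKM unit comes from the deposited table's name and values. Between 86.1% and 91.6% of low values in a library came within 0.2 of a whole number of fragments once 280 to 310 bases were taken off the transcript length (40% by chance), which gave the depths. Rows with at least 1 FPKM in 2 or more libraries (16276) were fitted as log2(FPKM + 1) with limma 3.58.1 in R 4.3.3, without a replicate block, on 16 group means with 16 residual degrees of freedom. The script was tested on simulated data. An exact permutation test of 2 against 2 libraries cannot go below p = 0.333, so none was used. The members and lists were chosen with earlier results of these data known. Of 24 comparisons, 22 were planned and 2 (day 2 against day 0 interactions) were added after seeing the data. Levels are given for some genes of the further lists (other p53 targets, p53 regulators and family, mitotic genes and the BCL2 family). They were taken per list and comparison from the 3 with the largest called difference whose libraries do not overlap. Outside that rule, Mettl3, the cell type markers and the 5 genes most alike to Cdkn1a and to Mdm2 were named. Alternatives were another pseudocount, 2 other filters, median-of-ratios rescaling, fits of the compared groups alone, a replicate block, a minimum difference, and leaving out each library.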

Additional observations from a re-analysis of the deposited data

Results flagged for a closer look

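Differences between lines that were themselves different at different days are listed here for the 10 genes, since a test of the change between days (an interaction in the limma fit, adjusted p under 0.05 over all tested genes) picked them out. Values are differences of log2(FPKM + 1) differences, and no explanation was weighed.

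Between day 0 and day 2 the difference of KO from WT changed for 9 of the 10 genes (8 upward and 1 downward, with 48.9% of all tested genes called). The changes were Trp53 -0.59, Cdkn1a 0.97, Mdm2 0.89, Ccng1 0.52, Trp53inp1 1.02, Bbc3 1.39, Phlda3 1.08, Sesn1 0.41 and Eda2r 0.83. Between day 0 and day 6 it changed for 9 genes (8 upward and 1 downward, 56.9% of all genes called), by Trp53 -0.68, Cdkn1a 1.10, Mdm2 0.31, Ccng1 0.12, Trp53inp1 0.98, Bax 0.21, Bbc3 0.52, Sesn1 0.31 and Eda2r 0.78. Trp53 was the 1 gene with a downward change in both. The Bax value between day 0 and day 6 ranged from 0.10 without WT replicate 2 of day 0 to 0.33 without WT replicate 1 of day 0.

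Between day 0 and day 2 the difference of Dex from no Dex changed for 7 genes (2 upward and 5 downward, 45% of all genes called), by Trp53 0.33, Mdm2 -0.94, Ccng1 -0.37, Trp53inp1 -0.86, Bax 0.25, Sesn1 -0.62 and Eda2r -0.93. Rescaling shifted the median of all genes there by 0.11, and it moved Trp53 to 0.50, Bax to 0.43 and Ccng1 to -0.19. Between day 0 and day 6 the difference of Dex from no Dex changed for 8 genes (4 upward and 4 downward, 48.7% of all genes called), by Trp53 0.39, Cdkn1a 1.16, Mdm2 -0.34, Trp53inp1 -0.58, Bax 0.48, Phlda3 1.55, Sesn1 -0.49 and Eda2r -0.33. Both contrasts with day 2 were added after the data were seen. Groups of 2 are too small to test for a library that stands apart.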

How the results depend on the processing

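The calls of the 10 genes in KO against WT at days 2 and 4 that the report names without a qualification held under every alternative but the minimum difference. Requiring a difference of at least 1 on the log2 scale left few calls. Called members at days 0, 2, 4 and 6 became 0, 1, 1 and 0 for KO against WT, 0, 0, 0 and 1 for no Dex against KO, 0, 0, 0 and 1 for Dex against no Dex and 0, 0, 0 and 0 for Dex against WT, and called genes 223, 769, 902 and 1630, 221, 48, 38 and 331, 81, 76, 149 and 247 and 277, 159, 327 and 961. For day 6 against day 0 in WT, KO, no Dex and Dex they became 1, 3, 3 and 1 members and 4581, 5198, 5540 and 5187 genes, and for the KO and Dex interactions of day 6 and then of day 2 1, 2, 3 and 0 members and 1657, 532, 757 and 351 genes. With a mean of at least 5 FPKM, where fewer genes are tested, the genes called for day 6 against day 0 numbered 7880, 8148, 8222 and 8049. Fitting the compared groups alone, with fewer samples, gave 3357 genes for KO against WT at day 0, 3941 (day 2) and 2284 (day 4) for the fusion line without Dex against KO, and 4342 and 2603 for Dex against WT at days 0 and 2, where the called members were 6 and 2. Rescaling left 3 called members for Dex against WT at day 2. It turned the sign of 7 small differences, of which only that of Trp53inp1 had been called before rescaling. At day 2 these were Bax with against without Dex (0.0013) and Cdkn1a in Dex against WT (0.018), and at day 4 Ccng1 in Dex against WT (-0.024). From day 0 to day 6 they were Phlda3 in KO (-0.030), Eda2r in no Dex (-0.10) and Trp53inp1 in Dex (-0.077). The last was Cdkn1a in the Dex interaction of day 2 (0.12). Leaving out 1 library gave 5 to 8 called members for KO against WT at day 6 and 2 to 3 for Dex against WT at day 2. It turned the sign of small differences, none of them called with all libraries, whose values ran -0.13 to 0.20 for Phlda3 in KO against WT at day 0, -0.21 to 0.12 for Phlda3 at day 6 against day 0 in WT, -0.17 to 0.054 for Bax in the KO interaction of day 2, -0.036 to 0.020 for Cdkn1a in Dex against WT at day 2, -0.18 to 0.039 for Sesn1 in Dex against WT at day 2, -0.029 to 0.17 for Bbc3 in Dex against WT at day 4, -0.0037 to 0.080 for Mdm2 in KO against WT at day 6, -0.0098 to 0.0053 for Trp53 in the Dex contrast at day 0, -0.16 to 0.081 for Bbc3 at day 6 against day 0 in no Dex, -0.13 to 0.016 for Cdkn1a in the Dex interaction of day 2, -0.017 to 0.12 for Bbc3 in the Dex contrast at day 2, -0.047 to 0.15 for Bbc3 in the Dex contrast at day 4 and -0.017 to 0.051 for Eda2r in the Dex contrast at day 4. Same-numbered libraries did not pair: deviations of duplicates correlated at -0.088 to 0.125 (median 0.003) over 120 pairs of groups. The replicate block moved no count of calls by over 1.5 times, with 9 members called for KO against WT at day 2 under the block, and brought 3 values past the threshold (Bax at day 2 with against without Dex, -0.11, Eda2r in Dex against WT at day 6, -0.12, and Eda2r from day 0 to day 6 in no Dex, 0.11). All 10 genes lay above the level of 3 fragments in every library, so depth did not limit their detection.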
